A study of Mus musculus with 7 samples.

Results

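The 10 marker genes of dendritic cells and macrophages examined here were measured on 7 arrays of antigen-activated OT-1 CD8 T cells: Siglech, Cst3, Itgax, Itgam, Flt3, Xcr1, Csf1r, Lyz2, Cd68 and Fscn1. Every non-control probe whose gene name in the scanner files equalled one of these symbols was taken. That gave 19 probes for the 10 genes, out of 55681 probes on the array. Of these, 15 probes of 9 genes passed the filter on dim probes, which asked that a minimum of 3 among the 7 arrays show a signal well above background by the scanner software's own call. The 4 that did not pass were 2 of the 3 Siglech probes, 1 of the 3 Flt3 probes and the single Xcr1 probe. Each passing probe was above background on at least 2 WT and 2 Lck-/- arrays, so none passed through 1 group alone.

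Total RNA was labelled with Cy3 and hybridised to 1-colour Agilent arrays, 1 array per sample. The 4 WT samples were lymphocytes from lymph node of mice with the OT-1 T cell receptor transgene (het in the labels) on a Rag-/- background. The 3 Lck-/- samples carried the same transgene and background plus Lck-/-, with a knocked-in Lck whose expression was removed by taking doxycycline out of the diet for 7 days. Both groups were stimulated in culture with 100 nM SIINFEKL, the ovalbumin peptide seen by OT-1, for 24 h. Doxycycline feeding of the WT mice, the promoter of the knocked-in Lck, and the ages and sexes of the animals are not given in the labels. Feeding, construct and Lck loss therefore cannot be told apart. The labels name the cells CD8 T lymphocytes and give no sorting step, and Rag deficiency removes B cells and other T cells but leaves dendritic cells, macrophages and NK cells in the animal.

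CD8 T cells recognise peptide shown on MHC class I, and dendritic cells are potent at showing it and at giving the costimulation that goes with it. Conventional dendritic cells arise under the cytokine receptor Flt3, plasmacytoid dendritic cells carry the sialic acid-binding lectin Siglec-H, and macrophages depend on the receptor for colony-stimulating factor 1. On activation dendritic cells mature: they raise MHC class II, costimulatory ligands and the actin-bundling protein fascin, and they make the chemokines CCL17 and CCL22. In bulk RNA, fewer cells of a type and less RNA per cell cannot be told apart.

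The probes themselves differed in kind, and their sequences are shown because the readings for Siglech and Itgam depended on the probe. The part of the sequences in those readings was not tested. Coordinates come from the scanner files (mm9), and sequences are 5′ to 3′, and capitals mark a tandem repeat of a short unit at least 16 bases long. For each probe 30 of its 60 bases are given; the place of the probes in their transcripts was not analysed here.
Siglech A_55_P2141013, chr7:63034088-63034147 plus strand, bases 31 to 60: tctgtctcAAAGAAAGAAAGAAAGAAAGAA
Siglech A_55_P2165790, chr7:63033826-63033885 plus strand, bases 1 to 30: acaacagttaaattcccttgcagagacatc
Itgam A_55_P1977934, chr7:135261755-135261814 plus strand, bases 1 to 30: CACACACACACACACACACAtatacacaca
Itgam A_55_P1977926, chr7:135212140-135212199 plus strand, bases 1 to 30: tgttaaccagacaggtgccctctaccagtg
Itgam A_55_P1977929, chr7:135260275-135260334 plus strand, bases 1 to 30: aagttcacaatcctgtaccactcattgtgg
Lyz2 A_51_P321150, chr10:116719175-116719234 minus strand, bases 1 to 30: aacgttgtgagtttgccagaactctgaaaa
Cd68 A_55_P1961943, chr11:69477775-69477834 minus strand, bases 1 to 30: gcctcatctcttcaccatgccactgactca
Siglech A_55_P2141013 ends in a repeat of 22 bases and Itgam A_55_P1977934 starts with one of 20 bases. No other member probe held such a repeat, and 0.672% of all named probes did. An identical run of 16 bases with probes of other genes was shared by 39 probes for Itgam A_55_P1977934, with a median level of 1.55, and by 7 probes for Siglech A_55_P2141013, with a median level of -1.47. The other member probes shared such a run with at most 1 probe.

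Levels are log2 of the processed spot signal minus the 75th percentile of the same array, so 0 is that percentile and 1 unit is a doubling. Levels of different probes are not set against each other. The share of non-control spots well above background ran from 46.57% to 61.06%, no spot was saturated, and the array labelled WT 3 had 1549 spots flagged as outliers against 166 to 557 on the others. On WT 3 the flag removed 4 of the 19 member probes: those of Cst3, of 1 Cd68 probe and of 2 Csf1r probes. As a check of the cell type, 16 of 17 CD8 T cell genes were above background on all 7 arrays, among them Cd3d, a chain of the receptor complex, and Cd6, a surface receptor of T cells. B cell genes, which Rag deficiency should leave without their cells, were mixed: 3 of 10 listed were above background on all 7 arrays and 3 on none. Lck itself did not part the groups: it was 7.44, 7.67, 7.36 and 6.04 on WT 1 to WT 4 and 8.02, 6.21 and 6.17 on Lck-/- 1 to Lck-/- 3. The library labelled WT 4 and the library labelled Lck-/- 1 thus go against their labels, and whether the probe lies in the deleted part or also reads the knocked-in copy was not tested. Groups below are as labelled, and the members, their passing probes and the marker lists were also compared with both of these arrays left out.

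No dendritic cell or macrophage marker passed the threshold between the libraries labelled Lck-/- and WT (limma, 2 groups, Benjamini-Hochberg over all 16441 genes tested, threshold 0.05). Of the 9 markers tested, 0 were higher and 0 lower. The share called was 0% among all genes tested, 0 of 16441, with a smallest adjusted p of 0.0686. At an unadjusted p under 0.05 there was 1 of 9 markers, Cd68, which was higher, against 7.09% of all genes, with 5.04% higher and 2.04% lower. By single probes it was 1 of 15 against 7.24%. Where a gene had several passing probes, the probe with the highest mean stood for it. Differences on that basis ran from 0.13 to 0.80 with a median of 0.33, against a median of 0.05 and 59.1% positive differences over all genes. By single probes, 11 of the 15 differences were positive and 4 negative, the latter in Itgam, Flt3 and Csf1r (2 probes). Leaving out both doubted arrays, 0 of the 9 were called while 56 of all genes were, 0.341%, and the median difference of the 9 was 0.54.

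**Figure D1:**
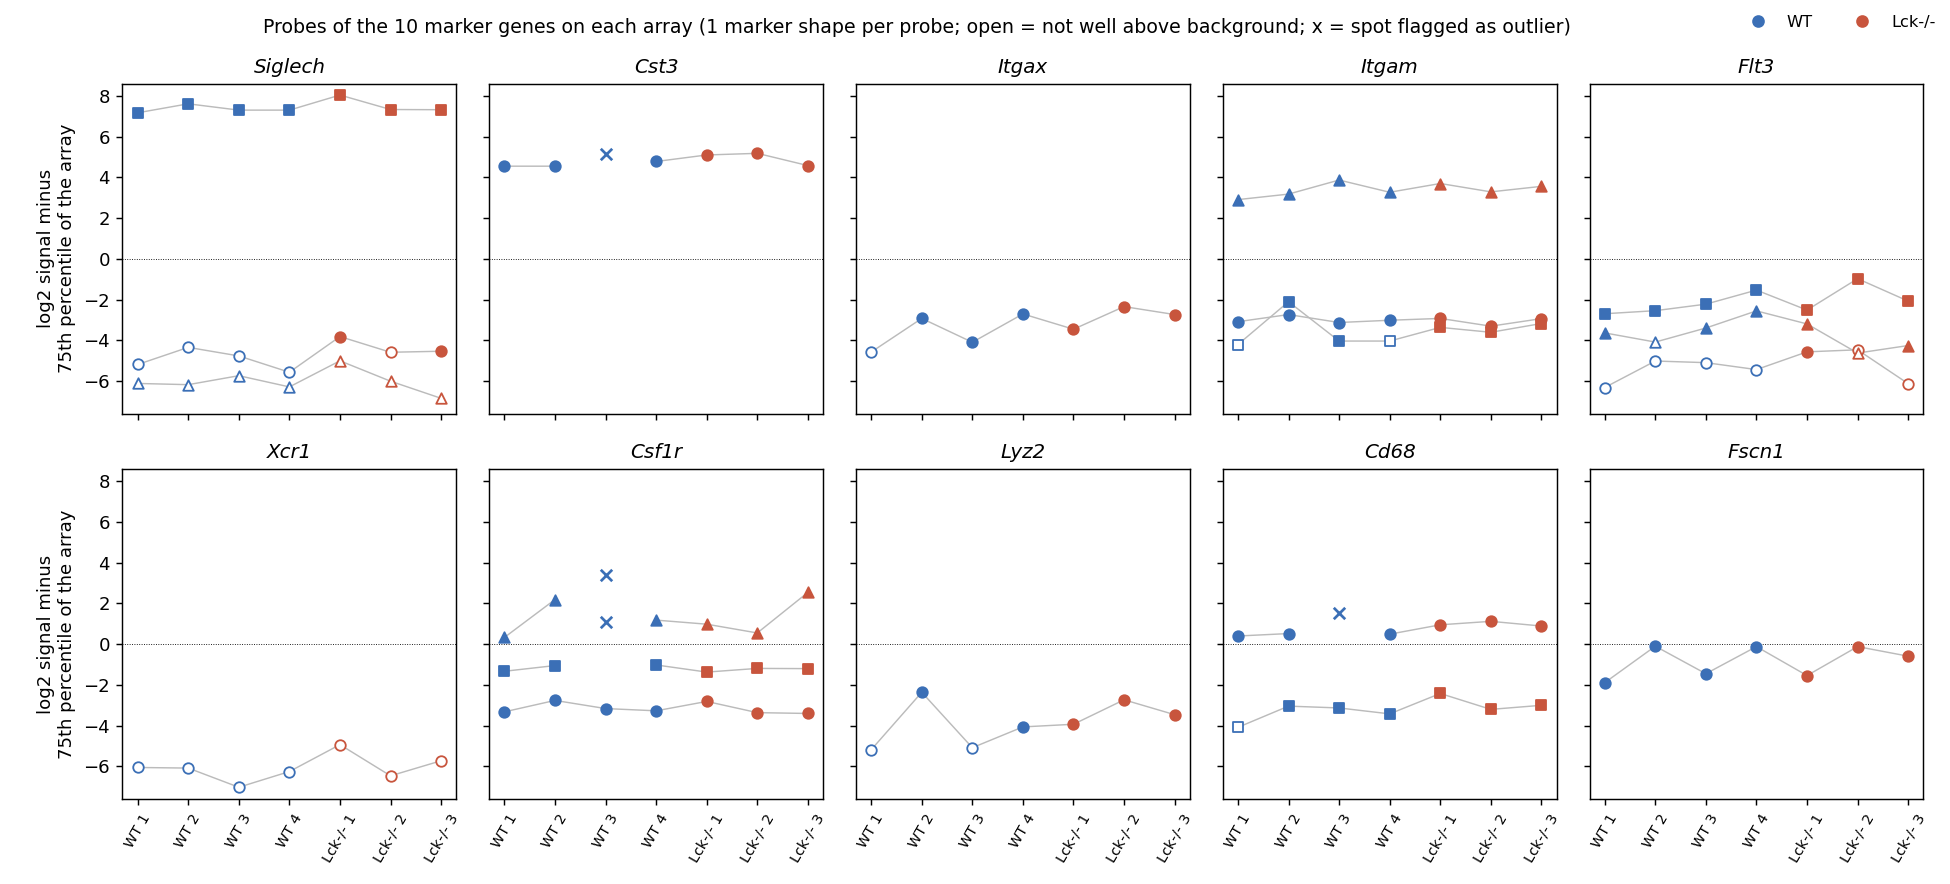
Signal of all 19 probes of the 10 marker genes on each array, as log2 minus the 75th percentile of the array (y axis), with WT in blue and Lck-/- in red. Filled symbols are well above background, open symbols are not, and crosses are spots flagged as outliers and left out. For Siglech, 2 of the 3 probes were below background on most or all arrays.

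The plasmacytoid marker Siglech gave readings that depended on the probe. The repeat-bearing probe A_55_P2141013 read 7.17, 7.61, 7.30 and 7.30 on WT 1 to WT 4 and 8.04, 7.33 and 7.32 on Lck-/- 1 to Lck-/- 3. The groups overlapped, and the difference was 0.22 (SE 0.21, limma adjusted p = 0.889). Leaving out Lck-/- 1, the array with the highest reading, gave -0.02, and leaving out WT 4 as well gave -0.03. Probe A_55_P2165790 was not well above background on any of the 7 arrays, reading -6.84 to -5.00. Probe A_55_P2141008 was above background on Lck-/- 1 and Lck-/- 3 only, at -3.81 and -4.53. A Siglech signal on all arrays thus rests on 1 probe of 3, and the part of its repeat in that level was not tested.

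Other plasmacytoid genes came from a list of 14, of which 13 were tested. None was called in either direction, 10 had positive and 3 negative differences, and the median was 0.15, or 0.07 without the 2 doubted arrays. Bst2, an interferon-induced membrane protein that many activated cells also make, read 5.66, 5.32, 5.37 and 5.51 in WT and 5.55, 6.08 and 5.70 in Lck-/-, a difference of 0.31 (SE 0.17). Pacsin1, an adaptor of endocytosis, differed by 1.13 (SE 0.64); its reading of 7.55 on Lck-/- 1 stood above the 4.74 to 5.87 of the other 5 arrays measured, and without it and WT 4 the difference was 0.34.

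Markers of conventional dendritic cells were mixed: 6 of 12 type 1 genes and 3 of 10 type 2 genes were above background on all 7 arrays, and 3 and 5 on none. Xcr1, the receptor for the chemokine XCL1 on type 1 dendritic cells, was well above background on 0 of 7 arrays. Its reading was -6.05, -6.08, -7.02 and -6.25 in WT and -4.93, -6.46 and -5.72 in Lck-/-, which has no order below background, and no fold is given. Clec9a and Tlr3, both also used to mark type 1 dendritic cells, were likewise above background on no array, as were Cd209a and Clec10a of type 2 dendritic cells; these 4 were picked after their values were known. Irf8, Batf3 and Mgl2, described below, were among those above background on all arrays.

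Flt3, the receptor that supports dendritic cell development, was above background on all 7 arrays with probe A_66_P116412. It read -2.69, -2.54, -2.22 and -1.53 in WT and -2.51, -0.97 and -2.07 in Lck-/-. Lck-/- 2 was highest and WT 4 next, and the groups overlapped (difference 0.39, SE 0.41, limma adjusted p = 0.896). Leaving out Lck-/- 2 turned the difference to -0.05, whereas leaving out both doubted arrays gave 0.96 (limma adjusted p = 0.399). The second passing probe, A_66_P126155, went the other way at -0.60 (SE 0.43), or -0.73 without the doubted arrays, with its highest reading, -2.55, on WT 4 and its lowest, -4.62, on Lck-/- 2. The remaining probe was above background on Lck-/- 1 alone.

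Itgax encodes the integrin chain CD11c, which dendritic cells carry and which NK cells and activated CD8 T cells can also express. Its probe read -4.57, -2.92, -4.09 and -2.70 in WT and -3.45, -2.34 and -2.73 in Lck-/-. WT 1 was not well above background, and Lck-/- 2 was highest. The difference of 0.73 had an interval of -0.41 to 1.87 (SE 0.49, limma adjusted p = 0.819). It was 1.32 with both doubted arrays out (limma adjusted p = 0.395), 0.39 without WT 1, 0.48 without Lck-/- 2, 0.19 in the table the authors deposited and 0.20 with normexp background correction.

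Lists of type 1 and type 2 dendritic cell genes held 8 of 12 and 4 of 10 tested genes. None was called. The type 1 list had 4 positive and 4 negative differences with a median of 0.02, and the type 2 list 3 positive and 1 negative with a median of 0.08. Leaving out the doubted arrays turned both medians, to -0.33 and -0.03. The summed level of the type 1 list ran from 79.2 to 141 in WT and from 158 to 185 in Lck-/-, in multiples of the 75th percentile, and did not overlap. Bright genes weigh most in such a sum, and Irf8, at a mean level of 6.86, made up most of it. Mean log2 deviations from the WT mean, over the 6 genes measured and above background on all 7 arrays, overlapped between the groups. They were 0.21, -0.24, 0.07 and -0.04 on WT 1 to WT 4 and 0.46, 0.07 and 0 on Lck-/- 1 to Lck-/- 3. Irf8, a transcription factor that dendritic cells need and that activated CD8 T cells also make, read 6.31, 6.15, 6.69 and 7.01 in WT against 7.39, 7.17 and 7.31 in Lck-/-. Irf8 was the only 1 of the 8 type 1 genes tested whose groups did not overlap, against 7.34% of all genes. Its difference was 0.75 (SE 0.22). Batf3, a transcription factor of both type 1 dendritic cells and T cells, differed by -0.18 (SE 0.50), Mgl2, a lectin, by 0.10 (SE 0.33) and Tnfrsf11a, the RANK receptor, by 0.07 (SE 0.13). Without the doubted arrays Irf8 differed by 0.85, Batf3 by -0.58 and Mgl2 by -0.39.

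Fscn1, the fascin gene of mature dendritic cells, had a within-group spread larger than the difference between the groups. It read -1.89, -0.10, -1.45 and -0.12 on WT 1 to WT 4 and -1.54, -0.12 and -0.59 on Lck-/- 1 to Lck-/- 3. WT 1, WT 3 and Lck-/- 1 were low, WT 2, WT 4 and Lck-/- 2 were high and nearly level, and the groups overlapped. The spread within groups, 0.85, exceeded that of 94.5% of genes, and the arrays spanned 3.46-fold. The difference between groups was 0.14 (interval -1.08 to 1.36, SE 0.53, limma adjusted p = 0.984). It turned to -0.20 without WT 1, -0.05 without WT 3, -0.18 without Lck-/- 2, -0.07 with median centring of the arrays, and 0.79 with both doubted arrays out.

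Many genes of the mature dendritic cell list were, like Fscn1, high on WT 4 and Lck-/- 2 and low on WT 1. All 15 were tested and none was called; 11 had positive and 4 negative differences, with a median of 0.19, or 0.55 without the doubted arrays. Ccr7, the lymph node homing receptor that T cells also carry, differed by 0.47 (SE 0.21) with no overlap, and Relb, a subunit of NF-kB, by -0.08 (SE 0.18). Ccr7 was the only 1 of the 15 without overlap, against 7.34% of all genes. Ccl17, a chemokine for helper T cells, read -0.75, -0.21, 0.14 and 1.49 in WT and -0.62, 1.75 and 0.83 in Lck-/-. The costimulatory ligand gene Cd86 read -2.05, -1.53, -1.47 and -0.72 in WT and -2.21, -0.57 and -0.83 in Lck-/-. Both were lowest on WT 1 or Lck-/- 1 and highest on WT 4 or Lck-/- 2; they were chosen after their values were seen. Of the 14 list genes above background on all arrays, 8 were highest on Lck-/- 2 and 4 on WT 4. Among all 13536 genes measured and above background on all 7 arrays, the shares were 19.7% and 9.9%. Exactly these arrays were the highest pair for 8 of the 14 list genes, against 10% of the 13536.

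**Figure D2:**
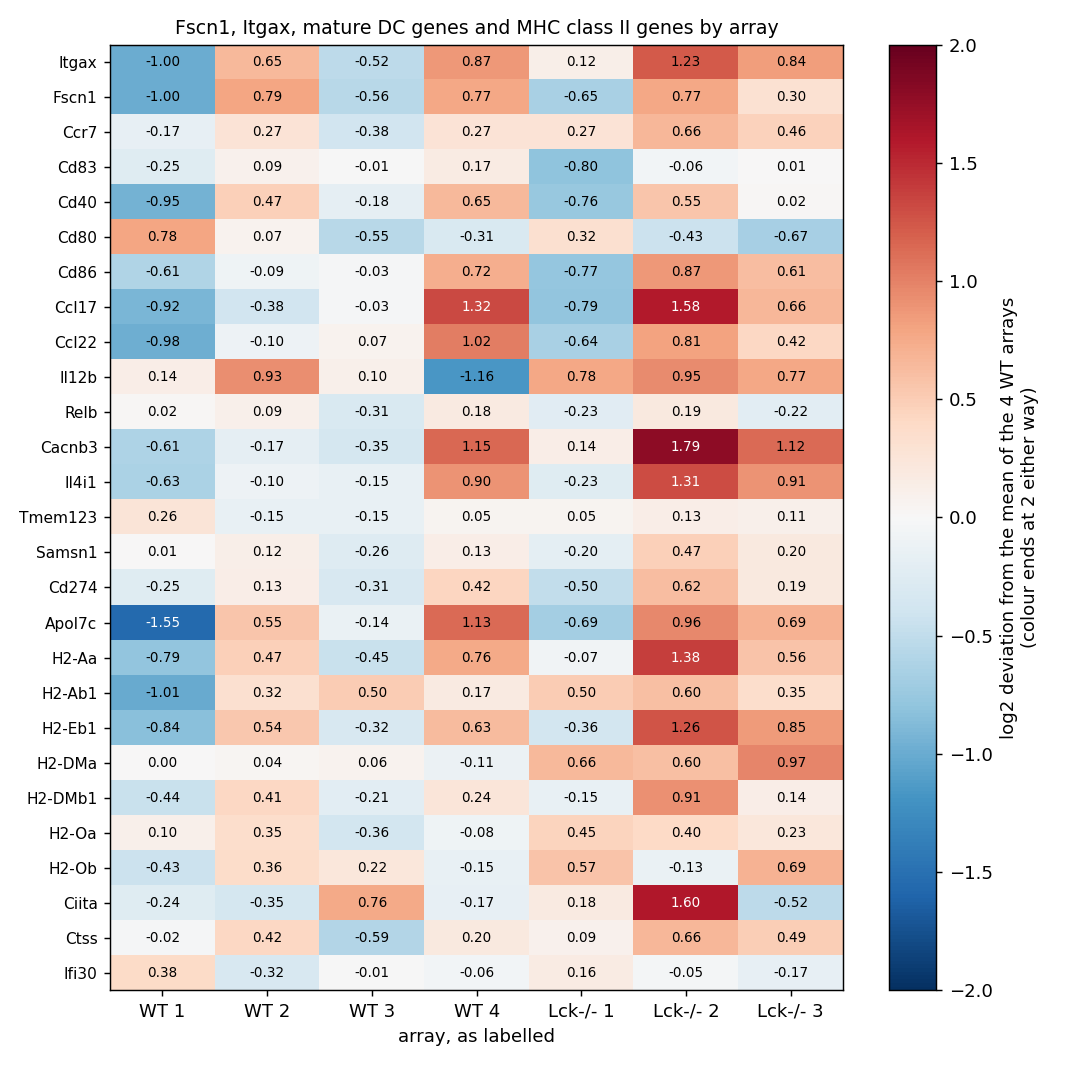
Deviation of Itgax, Fscn1, 15 mature dendritic cell genes and 10 MHC class II genes from the mean of the 4 WT arrays (log2, colour and printed number), by array. WT 4 and Lck-/- 2 are high for most of the mature dendritic cell genes and WT 1 is low for many, so the order of arrays crosses the groups.

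MHC class II presentation genes were measured for 10 of 11 listed. None was called, 9 had positive and 1 a negative difference, and the median was 0.41, or 0.58 without the doubted arrays. Ctss, the protease that trims the class II invariant chain, differed by 0.41 (SE 0.26) and H2-Ab1, a class II beta chain, by 0.49 (SE 0.35). The groups did not overlap for 1 of the 10 genes tested, against 7.34% of all genes. That was H2-DMa, picked after its values were seen, with Lck-/- above by 0.75 (SE 0.14, limma adjusted p = 0.588). Of the 9 genes above background on all arrays, 5 were highest on Lck-/- 2 and 5 lowest on WT 1. Among all 13536 genes measured and above background on all 7 arrays, the shares were 19.7% and 8.22%.

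Cd68 was the only one of the 9 tested members whose measured groups did not overlap, against 7.34% of all genes, 5.33% with Lck-/- above. Cd68 encodes a glycoprotein of lysosomes. Probe A_55_P1961943 read 0.40, 0.52 and 0.49 on WT 1, WT 2 and WT 4 and 0.95, 1.12 and 0.89 on Lck-/- 1 to Lck-/- 3. Lck-/- was higher by 0.51, 1.43-fold (SE 0.15, limma adjusted p = 0.633, n = 3 in each group). This test lacks WT 3, whose spot was flagged as an outlier; its signal, 1.54, was the highest of all 7, and with flagged spots kept the difference was 0.25 (limma adjusted p = 0.922). The second Cd68 probe, measured on all arrays, read -4.08, -3.04, -3.13 and -3.42 in WT and -2.42, -3.20 and -3.00 in Lck-/- (difference 0.54, SE 0.30, and 0.31 without the doubted arrays). There the groups overlapped. Leaving out WT 4 and Lck-/- 1, the first probe differed by 0.54.

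Lyz2, the lysozyme of macrophages and granulocytes, was dim. It read -5.18, -2.36, -5.08 and -4.06 in WT and -3.93, -2.73 and -3.46 in Lck-/-. WT 1 and WT 3 were not well above background, and WT 2 and Lck-/- 2 were highest. The difference was 0.80 (interval -0.75 to 2.35, SE 0.67, limma adjusted p = 0.859), or 1.12 with both doubted arrays out. It was 0.46 without WT 1, 0.50 without WT 3, 0.48 without Lck-/- 2, 1.40 without WT 2, 0.17 in the table the authors deposited and 0.15 with normexp background correction. Lyz1, a close copy whose transcript could share signal with Lyz2, was read by its own probe at -2.66, -0.29, -2.40 and -1.83 in WT and -2.74, -0.39 and -1.65 in Lck-/-, again highest on WT 2 and Lck-/- 2. It was picked for this resemblance to Lyz2.

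Csf1r encodes the macrophage growth factor receptor and had 3 passing probes. A_55_P2025078 read 0.33, 2.19 and 1.18 on WT 1, WT 2 and WT 4 and 0.98, 0.55 and 2.54 on Lck-/- 1 to Lck-/- 3. WT 2 and Lck-/- 3 were high, 1 in each group, and the difference was 0.13 (SE 0.63, limma adjusted p = 0.989, WT 3 left out as an outlier). The direction was not stable: it was -0.33 without WT 1, -0.47 without Lck-/- 3, -0.07 with median centring and 0.29 with both doubted arrays out. The other 2 probes spanned 1.56-fold and 1.27-fold over the arrays where this one spanned 4.64-fold, and they differed between groups by -0.06 (SE 0.21) and -0.12 (SE 0.16). Without the doubted arrays these were -0.30 and 0.00. The variation of A_55_P2025078 over the spots kept was thus not seen with the other Csf1r probes. The flagged WT 3 spots held 3.41 for A_55_P2025078 and 1.07 for A_55_P2025073, each the highest reading of its probe.

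Itgam encodes CD11b, an integrin chain of macrophages, granulocytes, NK cells and some dendritic cells. The repeat-bearing probe A_55_P1977934 read 2.91, 3.18, 3.87 and 3.27 in WT and 3.70, 3.29 and 3.56 in Lck-/- (difference 0.21, SE 0.24, limma adjusted p = 0.909, and 0.11 with both doubted arrays out). Probe A_55_P1977926 read -3.08, -2.73, -3.12 and -3.01 in WT and -2.92, -3.30 and -2.93 in Lck-/-, above background throughout, with a difference of -0.06 (interval -0.44 to 0.32). Probe A_55_P1977929 read -4.20, -2.10, -4.03 and -4.03 in WT and -3.36, -3.60 and -3.17 in Lck-/-, and WT 2 alone stood out. Without the doubted arrays these 2 probes differed by -0.13 and 0.06. WT 3 was highest for A_55_P1977934, and WT 2 was highest for the other 2 Itgam probes.

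Cst3, the secreted protease inhibitor cystatin C, is rich in dendritic cells and made by most cells. It read 4.55, 4.55 and 4.78 on WT 1, WT 2 and WT 4 and 5.10, 5.18 and 4.58 on Lck-/- 1 to Lck-/- 3. Lck-/- 1 and Lck-/- 2 lay above the 3 WT arrays measured and Lck-/- 3 among them. The difference was 0.33 (SE 0.20, limma adjusted p = 0.803). The flagged spot of WT 3 held 5.14, with which the difference was 0.20, and leaving out the 2 doubted arrays gave 0.33.

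**Figure D3:**
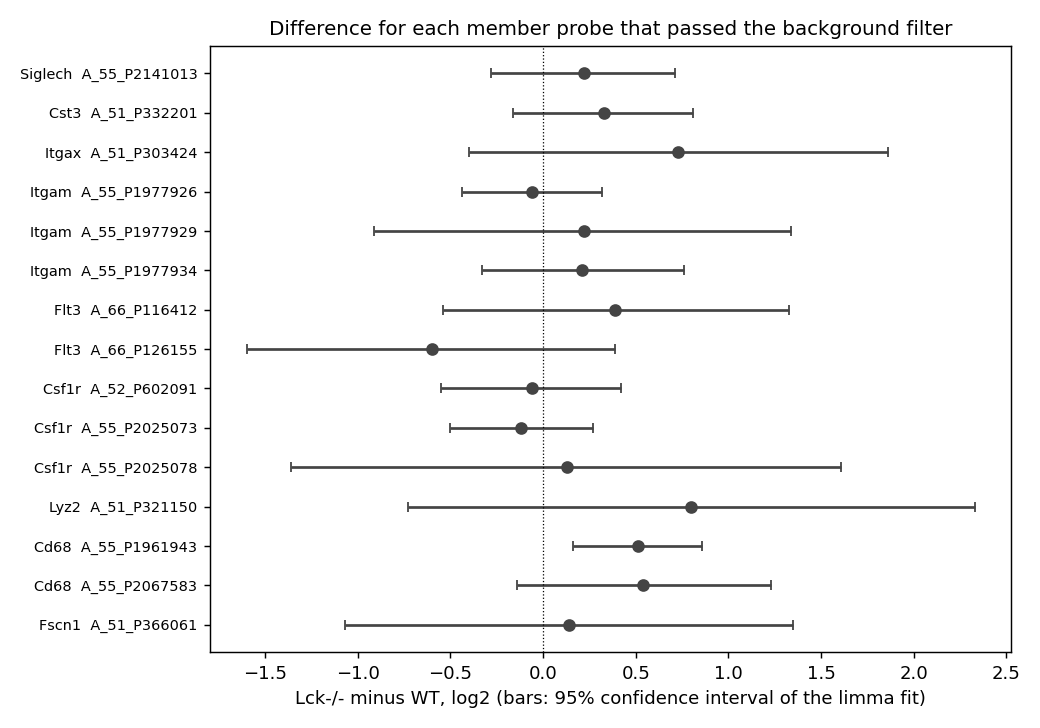
Difference Lck-/- minus WT on the log2 scale (x axis) for the 15 member probes that passed the background filter, with 95% confidence intervals from a limma fit of each probe. Only the interval of Cd68 A_55_P1961943, 0.16 to 0.86, leaves out 0, and no probe passed after adjustment over the 21809 probes tested.

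Monocyte and macrophage genes outside the members were tested for 13 of 26 listed. None was called on all arrays, 11 had positive and 2 negative differences, and the median was 0.39. With both doubted arrays left out the median was 0.63 and 2 genes were called higher: Ccr2, a chemokine receptor of monocytes that T and NK cells can also carry (2.90, limma adjusted p = 0.0134), and Marco, a scavenger receptor (1.88, limma adjusted p = 0.0385). On all arrays they differed by 1.59 (SE 0.78) and 1.03 (SE 0.51), and Ccr2 was above background on 6 of 7. The fit without the doubted arrays, WT 1 to WT 3 against Lck-/- 2 and Lck-/- 3, called 0.341% of all 16441 genes. On the arrays left out, WT 4 and Lck-/- 1, Ccr2 read -1.51 and -3.21 and Marco -1.40 and -2.23. Itgb2, the beta chain that pairs with CD11b and CD11c and that all leukocytes carry, differed by 0.47 (SE 0.16) without overlap, and Ctsd, a lysosomal protease, by 0.16 (SE 0.19). Itgb2 was the only 1 of the 13 tested without overlap, against 7.34% of all genes. On none of the arrays were 8 of the listed genes above background, among them the Fc receptor Fcgr1, the efferocytosis kinase Mertk and the sialoadhesin gene Siglec1, named after their values were known. Of the 10 above background on all arrays, 6 were highest on Lck-/- 2, against 19.7% of the 13536 genes measured and above background on all 7.

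Antigen-presenting cell genes were then averaged array by array, over genes measured and above background on all 7 arrays. T cells also make some of these genes, such as Ccr7, Irf8 and Batf3. The part of the CD8 T cells themselves in the means was not tested. The mature dendritic cell genes lay at -0.42, 0.06, -0.20 and 0.56 relative to the WT mean on WT 1 to WT 4 and at -0.35, 0.67 and 0.32 on Lck-/- 1 to Lck-/- 3. The MHC class II genes lay at -0.34, 0.29, -0.13 and 0.18 and at 0.21, 0.63 and 0.46 on the same arrays. Lck-/- 2 was highest for both lists and WT 1 lowest. The 4 members measured and above background on all arrays (Siglech, Itgam, Flt3 and Fscn1, of which the first 2 rest on repeat-bearing probes) averaged -0.51, 0.16, -0.01 and 0.35 in WT and 0.04, 0.50 and 0.17 in Lck-/-, with the same highest and lowest arrays. Singly, all 4 were lowest on WT 1, but only 1, Flt3, was highest on Lck-/- 2. The others were highest on WT 2 (Fscn1), WT 3 (Itgam) and Lck-/- 1 (Siglech). Other lists had another order: the type 1, type 2 and plasmacytoid genes were highest on Lck-/- 1, at 0.46, 0.38 and 0.26, and lowest on WT 2 (-0.24), on Lck-/- 3 (-0.19) and on WT 3 and Lck-/- 3 (-0.17). The monocyte and macrophage genes were highest on Lck-/- 2 (0.85) and lowest on WT 3 (-0.20). Among all 13536 genes measured and above background on all 7 arrays, WT 3 was lowest for 39.3% and Lck-/- 1 highest for 19.6%. Member probes above background numbered 11 of 19 on WT 1, 14 of 19 on WT 2, 10 of 15 on WT 3 and 14 of 19 on WT 4, and 17, 14 and 16 of 19 on Lck-/- 1 to Lck-/- 3. Lck-/- 1 also had the highest share of all probes above background, 60.4%, and WT 1 the lowest, 45.7%.

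NK cell genes moved with these arrays. Above background throughout were 3: Gzma, Klra8 and Klra4, the last named only as part of this mean. On average these 3 lay at -0.73, -0.18, -1.15 and 2.05 on WT 1 to WT 4 and at 0.87, 2.63 and 0.77 on Lck-/- 1 to Lck-/- 3. WT 4 and Lck-/- 2 were thus highest, as for the mature dendritic cell genes. The Klra4 probe shares a run of 16 bases with 6 probes of other genes. The part of the CD8 T cells themselves in these readings was not tested. Of 12 listed NK genes 10 were tested, all with positive differences and none called, and their summed level ran from 1.48 to 7.93 in WT and from 3.48 to 11.1 in Lck-/-, in multiples of the 75th percentile. Gzma, a granule protease, differed by 1.07 (SE 0.62) and Klra8, an activating receptor, by 1.56 (SE 0.86), or 1.82 and 2.65 without the doubted arrays. Because NK cells carry Itgam and Itgax, their part in the readings of these members was not tested. Adaptors shared by myeloid and NK cells (5 of 6 tested) had 4 positive differences and 1 negative, with Pirb, an inhibitory receptor, at 0.03 (SE 0.17) and Fcer1g, an Fc receptor adaptor, at 0.20 (SE 0.54), or -0.09 and 0.94 without the doubted arrays. The Pirb probe shares a run of 16 bases with 21 probes of other genes, all above background on all 7 arrays, with a median level of 8.4.

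**Figure D4:**
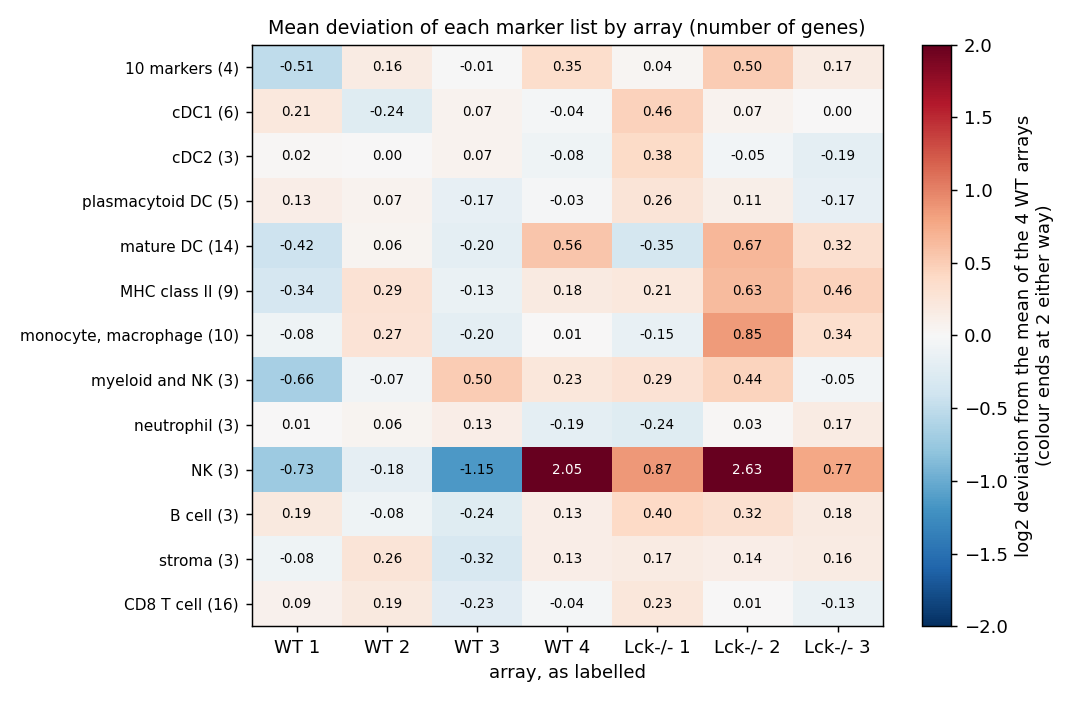
Mean deviation from the mean of the 4 WT arrays (log2) for each marker list and array, over the genes measured and above background on all 7 arrays (their number in brackets). NK genes reach 2.05 on WT 4 and 2.63 on Lck-/- 2, the mature dendritic cell genes 0.56 and 0.67. The mean of the 16 CD8 T cell genes stays between -0.23 and 0.23. Single genes of that list can range further: Lck, which is in it, read 8.02 on Lck-/- 1 and 6.04 on WT 4.

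Markers of the remaining cell types were not called either, with or without the doubted arrays. Neutrophil genes (6 of 12 tested) had 3 positive and 3 negative differences, with Csf3r, the receptor for granulocyte colony-stimulating factor, at 0.05 (SE 0.14) and Ly6g, a granulocyte surface antigen, at 0.41 (SE 0.24), or -0.09 and 0.77 without those arrays. The medians without them were -0.33 for neutrophil genes, 0.52 for B cell genes and 0.26 for stromal genes. B cell genes (5 of 10 tested) all had positive differences with a median of 0.48; Cd79b, a B cell receptor chain, differed by 0.53 (SE 0.24) and Cd22, an inhibitory lectin, by 0.34 (SE 0.17). Stromal and endothelial genes (6 of 11 tested) had 5 positive and 1 negative, with Pecam1, an endothelial adhesion molecule, at 0.40 (SE 0.20) and Ccl19, a chemokine of stromal cells, at 0.07 (SE 0.22). Among these 6, only Col3a1 had no overlap, against 7.34% of all genes. Picked after its values were seen, it was higher in Lck-/- by 0.80 (SE 0.28). Summed levels overlapped between the groups for the neutrophil list, 128 to 149 in WT and 134 to 160 in Lck-/-.

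Genes whose levels rose and fell most like each member over the arrays were taken from 13532 other genes above background on all 7, by Pearson correlation, as a description. For Fscn1 these were Pigw (0.988) and Nus1 (0.985), for Itgax Tbc1d25 (0.984) and Nfatc1 (0.983), and for Lyz2 Gm10325 (0.978) and Fbxo32 (0.974), each over 7 arrays. For Flt3 they were Ttc12 (0.966) and Smagp (0.957), for Itgam Oprm1 (0.967) and Pde6g (0.958), and for Siglech Hccs (0.995) and Rpl24 (0.993). Over the 6 arrays with a value, Cd68 was followed by 1700023D09Rik (0.978) and Dmtf1 (0.971), Cst3 by 2810002D19Rik (0.997) and Krt14 (0.989), and Csf1r by Mfap1b (0.994) and a transcript named only by its Ensembl ID (0.99). None of the named genes is in a marker list used here, and the arrays share sample, scale and slide.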

How the data were processed

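The authors' deposited scanner files give spot intensity from Agilent Feature Extraction 10.7.3.1, background-subtracted with detrending over the array and with surrogates switched on for dim signals, per the file headers. The table of log2 values deposited by the authors, whose normalization the sources used here do not give, served as an alternative. The submitters' processing notes name limma. From the 62976 features, log2 processed intensity minus the array's 75th percentile over 59305 non-control spots was computed, outlier spots were left out, spots of a probe averaged, and groups compared with limma 3.58.1 in R 4.3.3. The number of arrays limits the precision. Of 36743 named probes, 27235 were named by accession through the RefSeq table of GRCm38.p6, used for names only. Groups and numbers came from the titles; the series states biological replicates, and p-values measure the spread between these samples. Members and lists were chosen with earlier results of these data known. Named genes were all members, Lck, the 2 members of each list with the highest mean (none was called), and the 2 genes most like each member; others are marked in the text as chosen after their values were seen or are named for a call. All arrays were on 1 slide. The procedure was tested on simulated data.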

Additional observations from a re-analysis of the deposited data

Results flagged for a closer look

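One reading among the 4 WT arrays stood apart from the other 3. Itgam probe A_55_P1977929 read -2.10 on WT 2, against -4.20, -4.03 and -4.03 on the other WT arrays, a gap of 0.918 of the whole range, above Dixon's 95% critical value for 4 samples. The other 2 Itgam probes read -2.73 and 3.18 on WT 2. Of 15 member probes with a value on all 4 WT arrays, 1 was set apart in this way, and chance does so for about 1 group in 20. The 3 Lck-/- arrays are too few for this check.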

How the results depend on the processing

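Over 21 alternatives, 19 planned and 2 added after seeing the data, no member was called. The number of all genes called was 0, except 1 with array weights (genes with every value), 56 with both doubted arrays out, and 0 to 2 with single arrays left out (2 without WT 1). The median of the tested members stayed between 0.13 and 0.57, and from 0.25 to 0.53 with single arrays left out. Directions turned for 4 members. Csf1r was -0.07 with median centring, -0.06 with the filter on all 7 arrays, -0.31 with slide row as a block and -0.42 with flagged spots kept. Under the filter on all 7 arrays another probe, A_52_P602091, stood for Csf1r, and its own difference was -0.06. Keeping flagged spots added the WT 3 reading of A_55_P2025078, 3.41, the highest of the 7 for that probe. Fscn1 was -0.07 with median centring, Flt3 -0.11 with the mean of its probes and Siglech -0.03 with both doubted arrays out. The mean of the Flt3 probes takes in A_66_P126155, which differed by -0.60. Leaving out single arrays gave -0.47 to 0.60 for Csf1r, -0.20 to 0.53 for Fscn1, -0.05 to 0.72 for Flt3 and -0.02 to 0.34 for Siglech. What lies behind these ranges was not tested. With the replicate number of the titles as a block, Csf1r was -0.49 and no call changed; same-numbered arrays correlated at 0.165, 0.0864 and -0.00876 in their deviations, and none of the 3 Lck-/- arrays correlated best with its own number, and the numbers were therefore not used as pairs. Readings near background (2 Siglech probes, Xcr1, Lyz2) have little precision.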

Other observations

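The neutrophil and myeloid calcium-binding protein genes S100a8 and S100a9 are given here after their values were seen. S100a9 read lower on every Lck-/- array than on any WT array, and S100a8 was lower on average with overlap. S100a9 read -0.58, -1.90, -0.08 and -3.25 on WT 1 to WT 4 and -5.50, -3.76 and -3.37 on Lck-/- 1 to Lck-/- 3. S100a9 was above background on 6 of 7 arrays and S100a8 on 5. Their differences, -2.76 (SE 0.81) and -2.27 (SE 0.80), rest in part on readings not well above background. Without the doubted arrays they were -2.72 and -1.61. Neither was called in limma.

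Ccr2 read -4.37, -3.81, -4.20 and -1.51 in WT and -3.21, -1.06 and -1.38 in Lck-/-. Tyrobp, the DAP12 adaptor of myeloid and NK cells, read -1.05, -0.15, -0.87 and 1.10 in WT and -0.15, 1.86 and 0.42 in Lck-/-. WT 4 was the highest WT array and Lck-/- 2 the highest of all for both genes, and Tyrobp was chosen after its values were seen.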
